A study of Mus musculus with 6 samples.

Results

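The levels of 10 genes of the heart muscle cell were measured in mouse embryonic stem cells by polyA RNA-Seq. The genes, Myh6, Myh7, Actc1, Tnnt2, Ttn, Myl2, Myl3, Myl7, Pln and Mb, were found by their symbols in both deposited count tables, where all 10 were present among 39017 genes. They had been chosen on measured values of these same libraries, so their levels and differences are given as a description. Where the number of them past the threshold of the fit across all genes is given, it stands only beside the share of all genes past it and tests nothing about the 10. The 6 libraries fell into 3 groups of 2. The untreated group consisted of V6.5 mES cells, a C57BL/6 × 129/sv line, in which both alleles of Polr2a (RPB1, the largest subunit of Pol II) carried a mAID-GFP tag and in which OsTIR1 at Rosa26 was induced by 1 μg/ml doxycycline for 12 h. The auxin-treated group held the same cells after a further 6 h with 500 μM auxin, which leads OsTIR1 to mark the tagged RPB1 protein for degradation. The wild-type group held V6.5 mES cells without the tag, and the labels do not state whether these cells carried OsTIR1 or received doxycycline. The degron lines of the study were clonal, with clones chosen for the efficiency of their degradation. How many clones these libraries came from is not stated. The cells had been grown on irradiated feeder fibroblasts before the last passages.

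The contractile unit of the heart muscle cell is the sarcomere, in which thick filaments of myosin pull on thin filaments of actin. Calcium released inside the cell binds the troponin complex on the thin filament and so permits each contraction, and pumping it back into the sarcoplasmic reticulum ends the contraction. Embryonic stem cells have no sarcomeres, and the genes of this program are normally switched on during differentiation of the mesoderm into heart muscle.

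The cells were stem cells by their markers and not heart tissue. Pou5f1, the central pluripotency factor, had between 10625 and 13854 counts per library, while the 10 heart genes together had 370 and 391 counts in the untreated libraries, 892 and 1011 in the auxin-treated libraries and 476 and 507 in the wild-type libraries. Library totals lay between 14094022 and 15358714 counts, so a gene of this set rested on 0 to 286 counts in a library. The number of genes with at least 1 count was 21701 and 21518 in the untreated, 23223 and 22986 in the auxin-treated and 21175 and 21276 in the wild-type libraries, so more genes were detected in both auxin-treated libraries, and the part of this difference in the results on weakly expressed genes was not tested. The mRNA of the targeted gene Polr2a had 6623 and 6568 counts in the untreated and 10396 and 10663 in the auxin-treated libraries. The log2 fold change was 0.57 (SE 0.07, adjusted p = 0.00117 by edgeR, adjusted after Benjamini-Hochberg over all genes). Since auxin acts on the protein, this mRNA does not check the labels. In the labels of the wild-type libraries the RNA protocol speaks of retinas. The 9 retina markers together had 47 and 55 counts there and 55 to 75 in the other libraries, and the photoreceptor genes Crx and Rcvrn had no count in any library. In such bulk samples, fewer cells of a type and less RNA per cell cannot be told apart.

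The sequences just before the start sites of 5 of the genes are shown because they hold 5 of 6 short motifs known from heart promoters, in genes that differed in their values after auxin. Each is the 200 bases before a RefSeq start site (build GRCm38.p6), written 5′ to 3′ on the strand of the gene, and capitals mark every match of the motifs, which are named after the sequences, on either strand. No letter is shared by matches of different motifs in the 5 windows. The windows lay at chr2:114052876-114053075 (minus strand) for Actc1, chr10:53337486-53337685 (plus strand) for Pln, chr2:76982548-76982747 (minus strand) for Ttn, chr9:110763478-110763677 (plus strand) for Myl3 and chr11:5898783-5898982 (minus strand) for Myl7.
Actc1: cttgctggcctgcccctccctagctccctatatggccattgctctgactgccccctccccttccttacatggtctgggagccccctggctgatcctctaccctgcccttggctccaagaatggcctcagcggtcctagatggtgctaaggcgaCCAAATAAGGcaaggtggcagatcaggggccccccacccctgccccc
Pln: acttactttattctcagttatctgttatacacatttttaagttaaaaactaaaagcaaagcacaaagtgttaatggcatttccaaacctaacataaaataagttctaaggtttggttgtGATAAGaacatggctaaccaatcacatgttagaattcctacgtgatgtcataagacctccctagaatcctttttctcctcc
Ttn: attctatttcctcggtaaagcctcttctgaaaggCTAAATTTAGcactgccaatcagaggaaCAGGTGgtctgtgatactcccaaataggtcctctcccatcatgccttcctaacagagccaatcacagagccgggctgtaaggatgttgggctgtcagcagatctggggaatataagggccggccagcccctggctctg
Myl3: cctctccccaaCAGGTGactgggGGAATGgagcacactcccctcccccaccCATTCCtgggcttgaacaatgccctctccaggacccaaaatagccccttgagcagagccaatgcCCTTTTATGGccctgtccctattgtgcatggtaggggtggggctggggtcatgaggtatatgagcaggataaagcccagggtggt
Myl7: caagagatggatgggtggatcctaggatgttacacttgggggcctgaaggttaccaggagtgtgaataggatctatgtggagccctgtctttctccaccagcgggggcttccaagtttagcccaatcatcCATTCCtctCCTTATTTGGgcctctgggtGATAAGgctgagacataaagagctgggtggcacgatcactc

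The CArG box, which serum response factor (SRF) binds, occurred before Actc1, Myl3 and Myl7, and in 1.19% of all 32817 windows of this length. The letters GATAAG, bound by GATA factors, occurred before Myl7 and Pln, against 5.13% of all windows. The MEF2 box occurred before Ttn, against 2.29% of all windows. The letters CATTCC, bound by TEAD factors, occurred before Tnnt2, Myl3 and Myl7, against 10.1%, and the E-box CACCTG before Myh7, Tnnt2, Ttn and Myl3, against 13.9%. The TATA-box TATAAA occurred in 9.96% of all windows and in none of the 15 windows of the 10 genes. These matches describe letters and are not evidence of binding. The CArG box stood before Actc1, whose level was the most different after auxin among those of the 10 with a count in every library, and equally before Myl3 and Myl7, whose levels were close to the untreated ones, as given next. The RefSeq starts of Myl2 lay at least 7762 bases from any start of that gene in the GENCODE vM21 annotation, so its windows were not shown.

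To describe the genes after Pol II depletion, counts and normalised levels of the auxin-treated libraries were set beside those of the untreated libraries, beginning with the thick filament. Levels are CPM, counts put on a common library size with TMM scaling over the 6 libraries, and log2 fold changes come from the fit to the 4 libraries of the comparison. TMM scaling takes most genes to be unchanged. All levels and changes are thus relative to the other polyA RNA of a library. The amount of mRNA per cell after Pol II depletion was not measured, so a higher level need not be more transcript per cell. Myh6 (ENSMUSG00000040752, chr14:54941921-54966927 in mm10) encodes the fast α-myosin heavy chain, the main one of the adult mouse heart. It had 73 counts in each untreated library, 244 and 286 in the auxin-treated libraries and 49 and 57 in the wild-type libraries. Both auxin-treated libraries were far above the other 4, with a log2 fold change of 1.76 (SE 0.16) over untreated.

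Myh7 (ENSMUSG00000053093) encodes the slow β-myosin heavy chain of the fetal mouse heart and lies 3756 bases upstream of Myh6 on the same strand. Its counts were 64 and 64 in the untreated, 89 and 101 in the auxin-treated and 57 and 77 in the wild-type libraries. The auxin-treated libraries were again the highest, but by less, and the log2 fold change was 0.47 (SE 0.20). Expressed as a ratio, Myh6 was 3.38 times the untreated level (95% counting interval 2.81 to 4.09) and Myh7 1.38 times (1.10 to 1.74). The difference between these neighbouring genes was not tested. The intervals are exact, and cover counting error only. Of the 100-base stretches of Myh6 transcripts, 10.04% also occur in Myh7, so a small part of the reads of either gene could have been assigned to the other. The microRNA genes Mir208a and Mir208b, which lie in introns of Myh6 and Myh7, had at most 1 and 2 counts in any library.

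The myosin light chains did not behave alike. Myl2, the regulatory light chain of the ventricle, had 5 and 7 counts in the untreated, 21 and 51 in the auxin-treated and 3 and 1 in the wild-type libraries. Its auxin-treated libraries were the highest and also the least similar to each other, and the log2 fold change of 2.46 (SE 0.52) became 1.67 without auxin-treated library 2 and 2.97 without auxin-treated library 1. Myl3, the essential light chain of the ventricle and of slow muscle, had 57 and 50 counts in the untreated and 78 and 65 after auxin, with a log2 fold change of 0.31 (SE 0.22). Its wild-type libraries, with 116 and 100 counts, were above all others. Myl7, the regulatory light chain of the atrium, had 36 and 46 counts in the untreated, 32 and 35 in the auxin-treated and 43 and 40 in the wild-type libraries. It was the only one of the 10 genes whose auxin-treated libraries lay below both untreated libraries, with a log2 fold change of -0.39 (SE 0.27).

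Among the thin filament genes and the elastic filament, Actc1 (ENSMUSG00000068614, chr2:114047282-114053548), the actin of the heart sarcomere, had 10 and 15 counts in the untreated, 103 and 129 in the auxin-treated and 12 and 5 in the wild-type libraries. The auxin-treated libraries had no overlap with the rest, and the ratio to untreated was 8.64 (95% counting interval 5.71 to 13.6, log2 fold change 3.10, SE 0.29). Tnnt2 (chr1:135836354-135852260), cardiac troponin T, which ties the troponin complex to tropomyosin, had 23 and 19 counts in the untreated, 93 and 92 in the auxin-treated and 17 and 22 in the wild-type libraries. It was the most even of the genes between the auxin-treated libraries, with a log2 fold change of 2.03 (SE 0.25). Ttn (chr2:76703980-76982547), the giant elastic protein titin, had 99 and 111 counts in the untreated and 183 and 191 after auxin, with a log2 fold change of 0.73 (SE 0.15). In the wild-type libraries it had 156 and 196 counts, so that its auxin-treated and wild-type libraries overlapped.

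The calcium and oxygen genes were close to absent before auxin. Pln (ENSMUSG00000038583, chr10:53337667-53345987), phospholamban, the inhibitor of the calcium pump of the sarcoplasmic reticulum, had 0 counts in both untreated libraries, 15 and 18 in the auxin-treated libraries and 2 and 0 in the wild-type libraries. Taken against a floor of 3 counts per untreated library, Pln was at least 5.12-fold higher after auxin. Mb (ENSMUSG00000018893, chr15:77015487-77050670), the oxygen-binding myoglobin, had 3 and 6 counts in the untreated, 34 and 43 in the auxin-treated and 21 and 9 in the wild-type libraries. Its ratio to untreated was 7.96 (95% counting interval 3.98 to 18.1), with a log2 fold change of 2.96 (SE 0.44). Annotated genes on the opposite strand share 49.6% of the 100-base stretches of Pln, nearly all with Gm47644, and 21.1% of those of Mb, with Gm49540. Whether the counting used strand is not given in the sources used here, so reads of these partners cannot be told apart from those of Pln and Mb. Cep85l, which overlaps Pln on the opposite strand, had 86 and 95 counts in the untreated and 96 and 98 in the auxin-treated libraries.

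**Figure D1:**
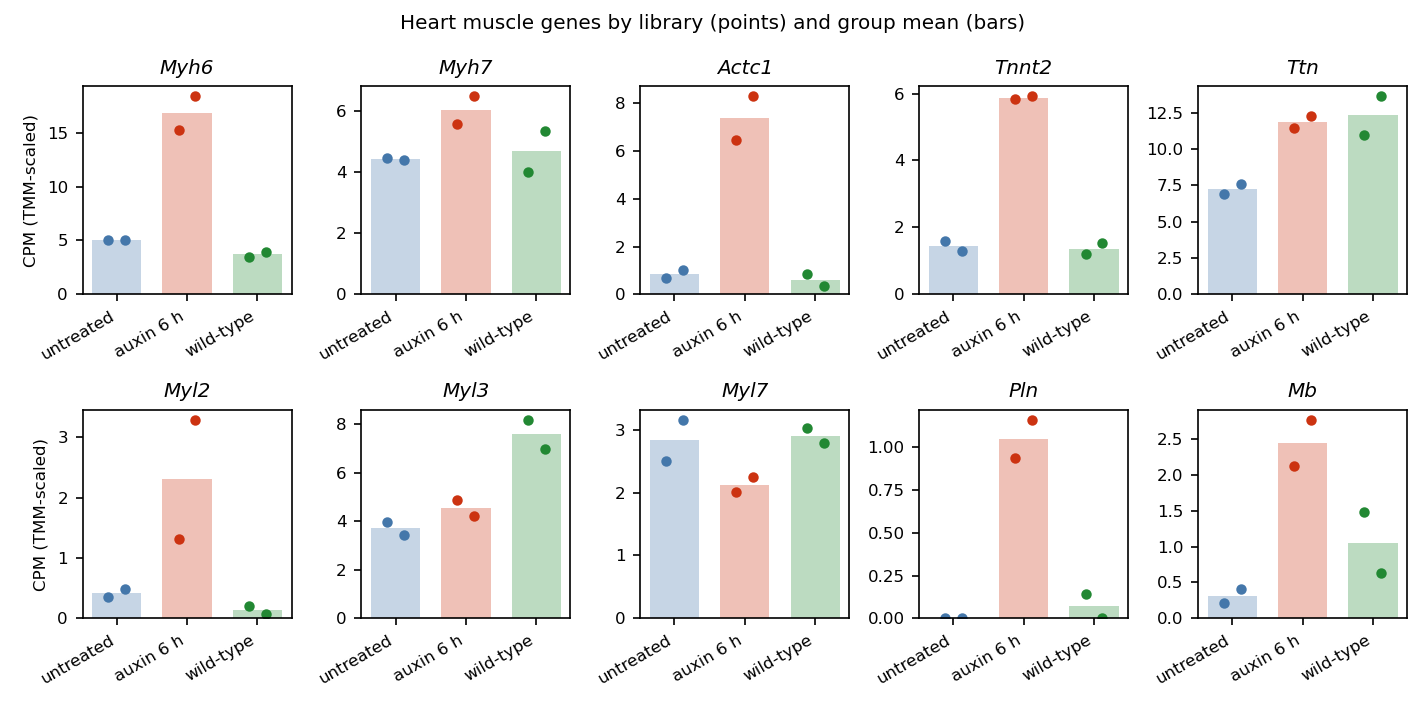
Level of each of the 10 heart muscle genes, in CPM after TMM scaling (y axis, from 0, a different scale in each panel), in untreated, auxin-treated and wild-type libraries (x axis). Points are single libraries and bars the means of 2. The red points stand above all others for Myh6, Myh7, Actc1, Tnnt2, Myl2, Pln and Mb, while Myl3 is highest in the wild-type libraries and Myl7 is lowest in the auxin-treated libraries.

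In the plot of levels by library, 7 of the 10 genes had both auxin-treated libraries above the 4 others, namely Myh6, Myh7, Actc1, Tnnt2, Myl2, Pln and Mb. The same held for 14.9% of all 16467 genes kept over the 6 libraries, and for 21.8% of the 6456 genes whose mean count lay within the range of the 10 genes. The genes had been picked with this contrast known, so nothing is read from the difference between these shares. Within the auxin-treated group, library 2 had the higher CPM in all genes but Myl3. The summed CPM of the 10 genes was 25.8 and 26.9 in the untreated, 55.9 and 65.2 in the auxin-treated and 33.5 and 35.4 in the wild-type libraries, and thus remained a very small part of the RNA in every group.

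In the edgeR fit across all genes, 7 of the 10 lay past an adjusted p under 0.05 on the higher side and 0 on the lower, a count that the choice of the genes on these libraries fixes and from which nothing is read. Of the 16128 tested genes, 2.56% were called higher and 1.64% lower. Among the 6286 genes with a mean count within the range of the 10 genes, 4.15% were called higher. Those past the threshold were Myh6, Actc1, Tnnt2, Ttn, Myl2, Pln and Mb. Of these, Myl2, Pln and Mb passed the filter on low counts through the auxin-treated libraries alone, which left only a difference to be seen. With at least 10 counts required in every library, 4 of the genes lay past the threshold, and with no filter 3. Both auxin-treated libraries lay above both untreated libraries for 9 genes, against 25% of all tested genes, and below them for Myl7, against 24.8%. These counts, too, are a description only.

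**Figure D2:**
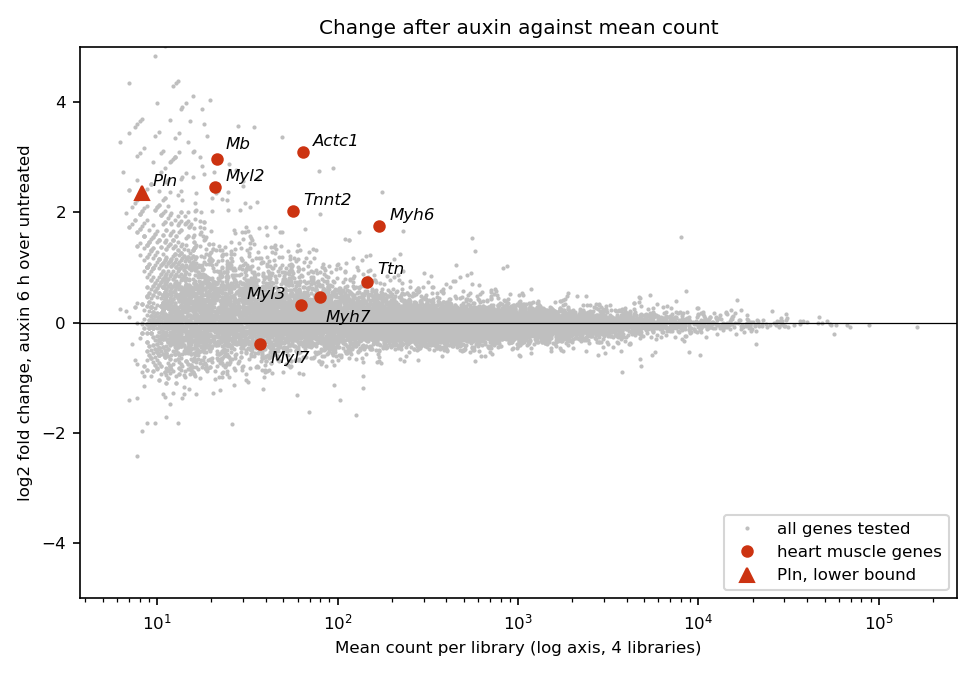
Log2 fold change of auxin-treated over untreated libraries (y axis) against the mean count over the 4 libraries (x axis, log scale) for the tested genes in grey and the 10 heart muscle genes in red, with Pln drawn as a triangle at its lower bound. Actc1, Mb, Myl2, Tnnt2 and Myh6 lie at 1.76 or higher, Ttn, Myh7 and Myl3 between 0.31 and 0.73, and Myl7 at -0.39; 4 genes with values beyond the axis limit of 5 are not drawn.

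Put per kilobase of exon, which makes genes comparable, the order of the levels differed between groups. In untreated cells Myl7 was highest with 4.803 ± 0.78 CPM per kb (SD, n = 2), followed by Myl3 with 1.81 ± 0.186 and Myh6 with 0.751 ± 0.00761. Actc1 (0.534 ± 0.146) and Myh7 (0.514 ± 0.00521) came next and did not differ beyond their spread, nor did Myl2 (0.213 ± 0.048), Mb (0.208 ± 0.0963) and Tnnt2 (0.188 ± 0.0271), and Ttn had 0.0622 ± 0.0044. After auxin, Actc1 had the highest level with 4.56 ± 0.814 CPM per kb, followed by Myl7 with 3.61 ± 0.302, and their ranges of mean ± SD overlapped. Myh6 (2.51 ± 0.331) and Myl3 (2.22 ± 0.241) came next, within their spread of each other. Then came Mb (1.64 ± 0.304) and Myl2 (1.18 ± 0.715), Tnnt2 (0.758 ± 0.00956) and Myh7 (0.701 ± 0.0768), each within its spread of the next, with Pln (0.381 ± 0.0566) and Ttn (0.102 ± 0.00514) last. In wild-type cells Myl7 (4.93 ± 0.284) and Myl3 (3.70 ± 0.412) were highest, and Mb, Myh6, Myh7, Actc1 and Tnnt2 followed at 0.706 ± 0.403, 0.552 ± 0.0553, 0.544 ± 0.111, 0.369 ± 0.217 and 0.176 ± 0.0308, each within its spread of the next. Ttn (0.106 ± 0.0163), Myl2 (0.072 ± 0.0513) and Pln (0.0255 ± 0.0361) came last, again each within its spread of the next. The lengths join the exons of all annotated transcripts, from 0.59 kb for Myl7 to 116.825 kb for Ttn, so levels of genes with long rare exons are understated.

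To compare the untreated degron cells with wild-type cells of the same line, wild-type libraries were set beside the same untreated libraries. The values of this comparison thus share their controls with those above, and the comparisons are not set against each other. Besides the tag, the groups differ in the choice of clones, possibly in OsTIR1 and doxycycline, and in the table that holds them. These cannot be told apart in this contrast. After the filter on low counts, 7 of the 10 genes entered the fit across 15778 genes. Myl3 (log2 fold change 1.02, SE 0.20) and Ttn (0.76, SE 0.17), or 2 of the 7, lay past its threshold on the higher side in wild-type cells and 0 on the lower, where 29.9% of all tested genes were called higher and 30.7% lower. The wild-type counts were also among the values the genes were chosen on, so this is a description and nothing is read from it. The values were -0.45 (SE 0.21) for Myh6, 0.08 (SE 0.22) for Myh7, -0.54 (SE 0.50) for Actc1, -0.10 (SE 0.34) for Tnnt2 and 0.03 (SE 0.26) for Myl7. Both wild-type libraries lay above both untreated libraries for Ttn, Myl3 and Mb, against 40% of all tested genes, and below them for Myh6 and Myl2, against 41%. Mb, which was not tested, had a ratio of 3.36 (95% counting interval 1.55 to 8.04), and Myl2 a ratio of 0.336 (0.0789 to 1.11).

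The signs of these values depend on where the scaling sets the median of all genes. In the wild-type comparison this median was -0.0096 by TMM, -0.0029 with the size factors of DESeq2 and -0.067 with library totals. Scaled to the 13 mitochondrial mRNAs instead of by TMM, the median log2 fold change of all genes was -2.10 in the wild-type comparison, and Myh7 (-2.01), Ttn (-1.33), Myl3 (-1.07) and Myl7 (-2.05) turned to lower values in wild-type cells. Relative to that median, Ttn and Myl3 were still higher. In the auxin comparison the same scaling moved the median by -0.17, and no gene of the 10 changed its direction. Pth1r, which overlaps the 5′ part of Myl3 on the opposite strand, had 35 and 48 counts in the untreated, 44 and 45 in the auxin-treated and 166 and 171 in the wild-type libraries, and thus moved with Myl3 in the wild-type libraries. The overlap covers 4.65% of the exonic bases of Myl3, and its part in the Myl3 counts was not tested.

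The other genes of the heart program were described by lists of 88 genes, chosen with earlier results of these data known. Of the 88, 87 were in the tables and 64 could be tested after auxin. Of these, 7 rose and 1 fell at an adjusted p under 0.05, where 2.56% of all tested genes rose and 1.64% fell. The median log2 fold change of the 64 genes was 0.21, against -0.000378 over all tested genes and 0.10 over those with a mean count in the range of the 10 genes. The median of the 12 tested feeder fibroblast markers was 0.29 and that of the 5 tested skeletal muscle markers 0.21. The shift of the related heart genes was not larger than that of these lists. It was larger than the medians of the smooth muscle (0.12), retina (0.12), endothelial (-0.03) and pluripotency (-0.26) lists. Both auxin-treated libraries lay above both untreated libraries for 33 of the 64 and for 7 of the 12 fibroblast markers, against 25% of all tested genes. Of the 7 genes that rose, 5 (Nrap, Casq2, Nppa, Kcnj2 and Popdc2) passed the filter through the auxin-treated libraries alone, a route by which 691 genes entered the test and 20.4% of them were called higher, against 1.76% of the others.

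By function, 1 of 8 tested thick filament and M-band genes rose, Mybpc3, cardiac myosin-binding protein C, with 36 and 19 counts in the untreated and 63 and 72 in the auxin-treated libraries (log2 fold change 1.19, SE 0.29, adjusted p = 0.0411). None of the 8 tested thin filament genes passed the edgeR test in either direction, nor DESeq2, and 1 had an unadjusted p under 0.05. Tnni3, cardiac troponin I, the partner of Tnnt2, had 55 and 59 counts in the untreated and 58 and 62 after auxin (log2 fold change -0.03, SE 0.22, adjusted p = 0.958). Tnnc1, the calcium-binding troponin C, had 41 and 38 counts in the untreated and 53 and 73 in the auxin-treated libraries (log2 fold change 0.57, SE 0.25, adjusted p = 0.231). The difference between these subunits and Tnnt2 was not tested. The untested Lmod2, a leiomodin that lengthens thin filaments, had 0 counts in both untreated and 5 and 6 in the auxin-treated libraries, at least 1.71-fold higher.

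Of 13 tested Z-disc genes, 2 rose. Nrap among them, and Casq2 below, passed the filter through the auxin-treated libraries alone. Actn2, the α-actinin that anchors thin filaments, went from 50 and 53 to 108 and 115 counts (log2 fold change 1.01, SE 0.20, adjusted p = 0.0135), and Nrap, a protein of nascent myofibrils, from 3 and 4 to 19 and 18 counts (2.26, SE 0.50, adjusted p = 0.0246). Of 8 tested calcium handling genes only Casq2, cardiac calsequestrin, which stores calcium in the sarcoplasmic reticulum, rose, from 4 and 3 to 20 and 20 counts (2.37, SE 0.49, adjusted p = 0.0187). Atp2a2, the calcium pump that phospholamban inhibits, had 7336 and 7563 counts in the untreated and 8000 and 7505 in the auxin-treated libraries (-0.05, SE 0.07, adjusted p = 0.778), and Sln, another inhibitor of the pump, had no count in any library. The mRNA of the pump was thus abundant in these cells before auxin, while that of its inhibitor Pln was not detected. At 0 counts, a level of up to 3 counts per library is allowed, and the proteins were not measured.

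Of the 12 tested hormone, energy and channel genes, 3 rose and 1 fell. The 3 that rose passed the filter through the auxin-treated libraries alone. Of all genes that entered by this route 20.4% were called higher, against 2.56% of all tested genes. Nppa, the atrial natriuretic peptide, had 1 and 4 counts in the untreated and 27 in each auxin-treated library (3.27, SE 0.53, adjusted p = 0.00623). Kcnj2, an inward rectifier potassium channel, went from 2 and 3 to 23 and 22 counts (3.01, SE 0.52, adjusted p = 0.00768), and Popdc2, a membrane protein of heart and skeletal muscle, from 4 and 0 to 25 and 32 (3.65, SE 0.64, adjusted p = 0.00818), which became 2.68 without untreated library 2, while without library 1 the remaining untreated count was 0. For Nppa the value was 2.62 without untreated library 1 and 4.48 without untreated library 2. Fabp3, the fatty acid-binding protein of heart, fell from 3291 and 4252 to 3076 and 2857 counts (-0.45, SE 0.10, adjusted p = 0.0216). Nppb, the natriuretic peptide gene next in kind to Nppa, had 28 and 21 counts in the untreated and 30 and 31 in the auxin-treated libraries (0.21, SE 0.31, adjusted p = 0.768).

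None of the 15 tested heart transcription factors passed the edgeR test in either direction, nor DESeq2, and 2 had an unadjusted p under 0.05. Nkx2-5 had 60 and 50 counts in the untreated and 63 and 64 in the auxin-treated libraries, and Gata4 185 and 212 against 188 and 192. Srf had 1098 and 978 counts in the untreated and 1122 and 1187 in the auxin-treated libraries (log2 fold change 0.05, SE 0.08, adjusted p = 0.794). The largest value among these factors was that of Smyd1, a muscle methyltransferase, at 0.87 (SE 0.35, adjusted p = 0.187).

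In the main fit 413 of all 16128 tested genes rose. By DESeq2 this was 128 of 18510, with at least 10 counts in every library 246 of 14967 and with no filter 43 of 25815. The number of related genes that rose also depended on the method. It was 2 by DESeq2, which called Nppa and Popdc2, 2 with at least 10 counts in every library and 0 with no filter on low counts. It was 3 without either auxin-treated library, 18 without untreated library 1 and 5 without untreated library 2. Without either auxin-treated library, Mybpc3, Actn2, Nrap, Casq2 and, in the other direction, Fabp3 lost their calls. Without auxin-treated library 1 or 2, the log2 fold changes were 3.28 and 3.25 for Nppa, 2.99 and 3.02 for Kcnj2, and 3.83 and 3.44 for Popdc2. These 3 genes passed the filter through the auxin-treated libraries alone, so this is no independent support. With no filter none of the 3 was called (edgeR, adjusted p = 0.0645, 0.0645 and 0.0887). Nrap also lost its call without either untreated library, and Mybpc3 and Casq2 without untreated library 2. Mybpc3 in particular had a log2 fold change of 1.72 without untreated library 1 and of 0.79 without untreated library 2.

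**Figure D3:**
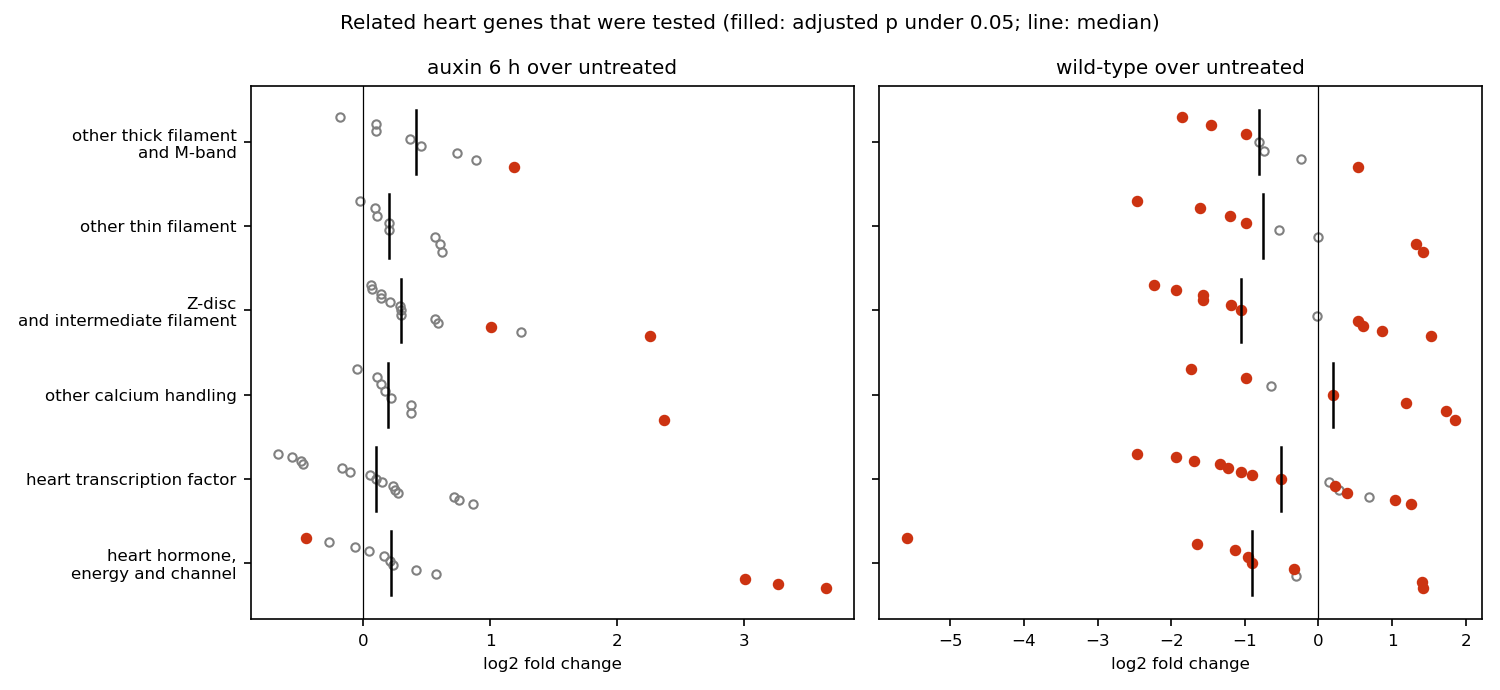
Log2 fold change (x axis) of the tested genes of 6 lists related to the heart muscle genes (y axis), for auxin-treated over untreated libraries (left) and wild-type over untreated libraries (right), with filled points at an adjusted p under 0.05 and a line at the median of each list. After auxin, 7 of 64 genes are filled on the right side of 0 and 1 on the left, while in wild-type cells 17 of 57 are filled on the right and 29 on the left.

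In the wild-type comparison, 57 related genes could be tested, of which 17 were higher and 29 lower in wild-type cells, where 29.9% of all tested genes were higher and 30.7% lower, so that the count higher was at the background. By DESeq2, 14 were higher and 21 lower. The 57 genes had a median of -0.73 against -0.00962 over all tested genes. Scaled to the mitochondrial mRNAs, 0 were higher and 55 lower, where 73 of all 15778 tested genes were higher and 15235 lower. Lower genes included Acta1, skeletal α-actin, with 1878 and 1256 counts in the untreated and 276 and 288 in the wild-type libraries (log2 fold change -2.46, SE 0.16, adjusted p = 2.69e-07), and Tpm1, a tropomyosin of many cell types (-1.60, SE 0.09, adjusted p = 6.44e-08). The greatest difference of the named genes was that of Cox6a2, a muscle form of a respiratory chain subunit, with 317 and 327 counts in the untreated and 7 and 6 in the wild-type libraries (-5.59, SE 0.22, adjusted p = 4.95e-09). Higher genes included Tnni3, with 55 and 59 counts in the untreated and 150 and 133 in the wild-type libraries (1.32, SE 0.18, adjusted p = 8.26e-05). Hrc, a calcium-binding protein of the sarcoplasmic reticulum (1.85, SE 0.16, adjusted p = 2.15e-06), and Ryr2, the calcium release channel (1.73, SE 0.21, adjusted p = 2.56e-05), were higher too. Under the mitochondrial scaling all 3 had negative values (-0.77, -0.24 and -0.35), above its median of -2.10 for all genes. The heart transcription factors were 4 higher and 8 lower of 15 tested (2 and 4 by DESeq2). Gata6 was at 1.04 (SE 0.19, adjusted p = 0.00072), but at -1.05 under the mitochondrial scaling, again above that median. Hand1 (-1.69, SE 0.18, adjusted p = 1.11e-05) and Nkx2-5 (-1.34, SE 0.30, adjusted p = 0.00219) were lower. Of the thick filament and M-band genes 1 of 7 was higher and 3 lower, of the Z-disc genes 4 of 11 higher and 6 lower, and of the hormone, energy and channel genes 2 of 9 higher and 6 lower, small counts to be read against the same background. The thin filament genes thus held members that differed in both directions under TMM scaling, with 2 higher and 4 lower of 8 tested, as did the calcium handling genes with 4 and 2 of 7.

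Markers of other cell types were read in the same libraries. Of 5 tested skeletal muscle markers, Myh3, an embryonic myosin heavy chain, rose after auxin from 50 and 57 to 114 and 116 counts (log2 fold change 1.00, SE 0.19, adjusted p = 0.0135), and 2 of the 5 had an unadjusted p under 0.05. Pax7, a factor of muscle precursors, had 4 and 6 counts in the untreated and 11 and 16 in the auxin-treated libraries (1.31, SE 0.52, adjusted p = 0.174), and the untested Myog, a factor of muscle differentiation, had 4 and 4 against 8 and 11. The defining factor Myod1 had at most 4 counts in any library, Myf6 had none, and Mylpf, the most abundant of the list, had 698 and 676 counts in the untreated and 756 and 815 in the auxin-treated libraries. None of 10 smooth muscle markers passed the edgeR test or DESeq2 after auxin, 1 had an unadjusted p under 0.05, and the most abundant were Tagln (0.11, SE 0.09) and Acta2 (0.05, SE 0.07). Of 12 tested feeder fibroblast markers, Col1a2, a collagen chain, rose after auxin (0.36, SE 0.08, adjusted p = 0.0224), 5 had an unadjusted p under 0.05 on the higher side, and Col1a1 had 0.34 (SE 0.09, adjusted p = 0.0506). The summed level of the 14 fibroblast markers was 1.16 and 1.32 times the untreated mean in the auxin-treated libraries, where that of the 10 heart genes was 2.19 and 2.52 times. These sums use CPM by library totals, without TMM scaling. None of the 4 tested endothelial or 3 tested retina markers passed the edgeR test or DESeq2, and 1 and 0 had an unadjusted p under 0.05. DESeq2 called none of the skeletal muscle or fibroblast markers. Of the 11 pluripotency genes, 0 rose and 5 fell after auxin, Nanog (-0.58, SE 0.07), Sox2 (-0.78, SE 0.09), Zfp42 (-0.65, SE 0.07), Esrrb (-0.54, SE 0.10) and Klf2 (-0.51, SE 0.10), and Pou5f1 did not pass (0.08, SE 0.09). The part of these lists in the values of the heart genes was not tested.

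**Figure D4:**
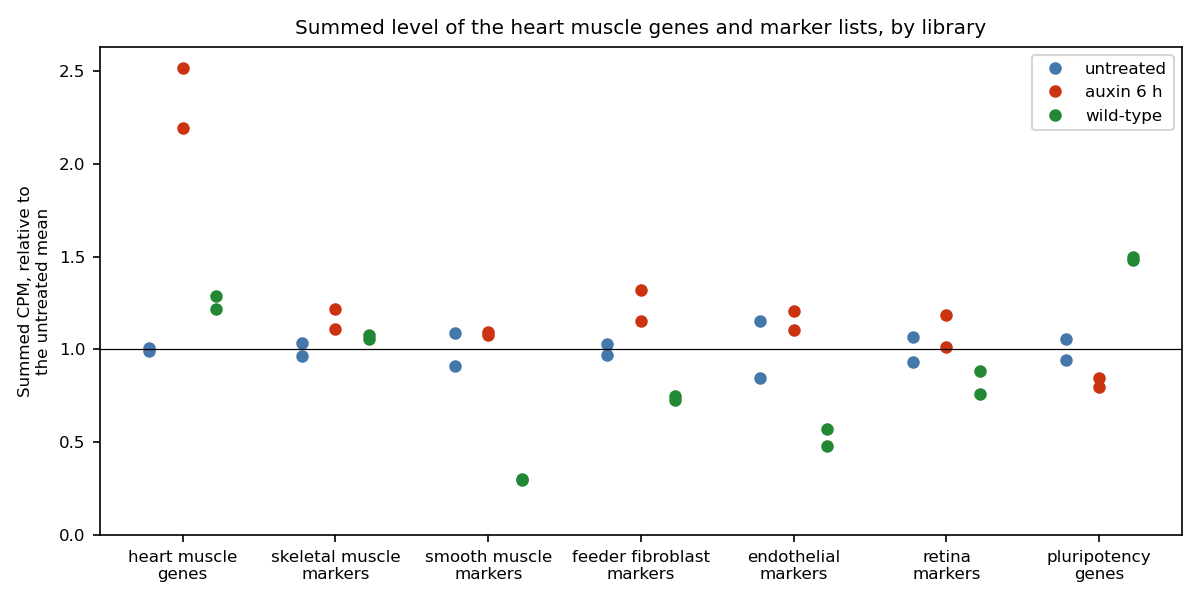
Summed CPM (by library totals, without TMM scaling) of the heart muscle genes and of 6 marker lists in each library, with 1 point per library. Values are divided by the mean of the untreated libraries (y axis, from 0). The heart muscle genes stand at 2.19 and 2.52 in the auxin-treated libraries, the fibroblast markers at 1.16 and 1.32, and the smooth muscle markers at 0.303 and 0.297 in the wild-type libraries.

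In wild-type cells, sums by library totals were 0.303 and 0.297 times the untreated mean for the smooth muscle markers. Those of the fibroblast markers were 0.726 and 0.75 times their untreated mean. Of the tested markers, 6 of 9 smooth muscle, 5 of 12 fibroblast and 2 of 4 endothelial ones were lower, with 0, 1 and 0 higher. By DESeq2, 4, 5 and 1 were lower and 0 higher. In this comparison 29.9% of all tested genes were higher and 30.7% lower. Tagln (-2.40, SE 0.09), Acta2 (-1.51, SE 0.08) and Tie1, an endothelial receptor (-2.85, SE 0.20), were among the lower ones. Of the 11 pluripotency genes, 7 were higher and 2 lower, of 4 tested skeletal muscle markers 2 were higher and 2 lower, and of 2 tested retina markers 1 was lower, while by DESeq2 0 skeletal muscle markers were higher and 1 lower and 0 retina markers were lower.

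Finally, the genes whose log2(CPM + 1) followed that of Myh6 and Actc1 most closely over the 6 libraries were listed, among the 14282 genes that reached 20 counts on average. For Myh6 they were Gm13034 (Pearson's r 0.996), C130036L24Rik (0.996), 2610507I01Rik (0.995), Ggn (0.993) and Dio3 (0.992), the last with 57 and 51 counts in the untreated, 295 and 306 in the auxin-treated and 19 and 32 in the wild-type libraries. For Actc1 they were Gm26810 (0.998), Aamp (0.998), Rnf19b (0.988), Id4 (0.988) and C130036L24Rik (0.987). None of these is a gene of the sarcomere. The 6 points share their groups, so a gene with its highest values in both auxin-treated libraries tends to reach a high r. The coefficients are a description. Among the 10 genes themselves, r with Myh6 was 0.98 for Actc1, 0.98 for Tnnt2, 0.95 for Pln and 0.95 for Myl2. It was lower for Myh7 (0.83), Mb (0.75) and Ttn (0.29). For Myl3, which was higher after auxin but highest in the wild-type libraries, r was negative (-0.43), as it was for Myl7 (-0.85).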

How the data were processed

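PolyA RNA-Seq of 6 libraries in 3 groups of 2 was used. The authors aligned paired reads to mm10 with HISAT2 2.1.0 and counted them per GENCODE gene with Salmon and HTSeq, and deposited whole-number counts, not normalized. The annotation release and strand setting are not given in the sources used here. One deposited table also carries the authors' own fold changes and p-values, which were not used, and 2 columns of per-sample values that matched no sample were not used. The degron and wild-type libraries stand in separate tables.

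Each comparison was fitted on its own 4 libraries with edgeR 4.0.16 in R 4.3.3 (glmQLFit and glmQLFTest, TMM, filterByExpr with a minimum count of 10, prior count 0.125, Benjamini-Hochberg over all tested genes, calls at an adjusted p under 0.05), after being tested on simulated data. A fold against a group with no counts was bounded with a floor of 3 counts per library. Ratios have exact 95% intervals for counting error. Totals of 14094022 to 15358714 counts limit the precision of genes with few counts. The labels do not say whether replicates came from separate cultures, so p-values measure only the spread between these libraries, which may be technical. The 13 gene lists, with 163 genes, and the 10 genes themselves were chosen with earlier results of these data known.

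Named genes were the 10 genes, up to 3 called genes per related list, direction and comparison, the marker genes with the most counts, the genes closest to Myh6 and Actc1, overlapping genes and Polr2a. Other genes (Tnni3, Tnnc1, Lmod2, Atp2a2, Sln, Nppb, Srf, Nkx2-5, Gata4 and Smyd1 in the auxin comparison, Myod1, Myf6, Pax7, Myog, Crx and Rcvrn) were named after their values were seen, for their roles beside the named ones. Exon lengths and overlaps came from GENCODE vM21, where 37693 of the 39017 identifiers were found, and sequences before start sites from RefSeq. The alternatives were DESeq2 1.42.0, its size factors, library totals, scaling to mitochondrial mRNAs, other filters, the replicate block, all 3 groups in one fit, a prior count of 5 and leaving out each library.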

Additional observations from a re-analysis of the deposited data

How the results depend on the processing

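Of the genes called after auxin, 413 higher and 264 lower, the counts were 128 and 108 by DESeq2, 167 and 52 when scaled to the mitochondrial mRNAs (76.3% of calls higher, against 61.0%), 43 and 12 with no filter, and 1081 and 849 with the replicate block. With at least 10 counts in every library 246 were higher, and with all 3 groups in one fit 668 were lower (45.9% of calls higher). Leaving out 1 library gave 142 to 1396 higher and 35 to 1330 lower, in a test chosen after seeing the data that takes the lone library to vary like the others. For the related heart genes, 7 higher and 1 lower, the count higher was 2 by DESeq2, 0 with no filter, 2 with at least 10 counts in every library, 15 with the replicate block and 3 to 18 without 1 library, and the count lower was 0 when scaled to the mitochondrial mRNAs, 0 with no filter and 0 to 1 without 1 library. Of the 10 heart muscle genes, 7 lay past the threshold on the higher side, 3 with no filter, 4 with at least 10 counts in every library and 5 to 7 without 1 library. In the wild-type comparison, scaling to the mitochondrial mRNAs gave 73 genes higher and 15235 lower, 0 and 55 of the related genes, and 0 and 7 of the heart muscle genes, against 4713 and 4842, 17 and 29, and 2 and 0. Under it the log2 fold changes turned negative for Myh7 (-2.01), Ttn (-1.33), Myl3 (-1.07), Myl7 (-2.05), Myh7b (-1.56), Tnnt1 (-0.68), Tnni3 (-0.77), Pdlim5 (-1.24), Nexn (-0.56), Ldb3 (-1.47), Hrc (-0.24), Ryr2 (-0.35), Casq1 (-0.89), Gata6 (-1.05), Tbx20 (-0.80), Gata4 (-1.70), Cox7a1 (-0.67) and Pgam2 (-0.68). The median of all genes was -2.10 under this scaling, and all of these values lay above it. The cause of these changes was not tested. Over all tested genes, the deviations of libraries with the same replicate number had a correlation of 0.06 for auxin and -0.03 for wild-type. With only 2 pairs each, this cannot decide whether replicate numbers pair the libraries. The replicate block changed the number of calls after auxin, as given above. Depth limits the genes with few counts: at 0 counts a level of up to 3 counts per library is allowed.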
